A study of Mus musculus with 6 samples.

Results

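Viperin, tetherin, the IFITM proteins and enzymes that act on nucleotides or on viral DNA are antiviral effectors that cells make before or during infection. Their genes were taken by symbol from the count tables, and all 8 were present among 24062 gene symbols: Rsad2, Cmpk2, Samhd1, Bst2, Ifitm1, Ifitm2, Ifitm3 and Apobec3. All 8 were also among the 13185 genes with enough counts to test. Rsad2 and Cmpk2 entered that set through the IFN-beta libraries alone, so they had to stand higher there.

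Restriction factors block a virus inside or at the surface of the cell that makes them. Type I interferon such as interferon beta (IFN-beta) binds its receptor and sets off signalling that ends at interferon-stimulated response elements (ISREs) in target promoters. Viperin (Rsad2) is a radical SAM enzyme that makes a chain-terminating CTP analogue, and Cmpk2 encodes a mitochondrial nucleoside monophosphate kinase. SAMHD1 degrades deoxynucleotides, tetherin (Bst2) holds budding virions at the cell surface, IFITM proteins hinder the fusion of virus and endosome membranes, and APOBEC3 is a cytidine deaminase that edits retroviral DNA.

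RNA of NIH3T3 cells, an established mouse embryonic fibroblast line, was sequenced in 6 libraries of 4 groups. Cells received SPT6 siRNA or a negative control (NC) siRNA by lipid transfection for 48 h, and then IFN-beta at 100 units/ml for 4 h or no IFN-beta. There were 2 libraries with SPT6 siRNA and IFN-beta, 2 with control siRNA and IFN-beta, 1 with SPT6 siRNA untreated and 1 with control siRNA untreated. SPT6 is a histone chaperone and transcription elongation factor, and the series asks how it bears on transcription stimulated by interferon. Each siRNA was a single reagent, all cells were transfected, and the titles place the untreated libraries at 0 h, so time in culture and IFN-beta cannot be told apart. Whether replicates were separate cultures is not in the labels, and the spread behind the p-values may be technical.

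Counts in genes came to 9861581 and 11174825 with SPT6 siRNA and IFN-beta, 13951889 and 17596498 with control siRNA and IFN-beta, 7935961 with SPT6 siRNA untreated and 11968565 with control siRNA untreated. Levels are given in CPM, counts divided by library size and scaled with TMM factors. Supt6, the targeted gene, stood at 108 and 88.4 CPM with SPT6 siRNA and IFN-beta, against 177 and 189 CPM with control siRNA and IFN-beta. Untreated it stood at 101 CPM with SPT6 siRNA and 175 CPM with control siRNA. With IFN-beta the log2 difference was -0.90 ± 0.18 (SE), which was not called (edgeR adjusted p = 0.247). The groups did not overlap, and 21.3% of all genes had both SPT6 siRNA libraries below both control libraries. All 8 fibroblast markers were tested, and their summed level was 13452 and 12656 CPM with SPT6 siRNA and IFN-beta, against 19348 and 16936 CPM with control siRNA and IFN-beta. Untreated it was 14617 CPM with SPT6 siRNA and 18585 CPM with control siRNA. With IFN-beta 7 of the 8 lay lower with SPT6 siRNA, whereas Pdgfra lay higher (log2 difference 0.13 ± 0.45). The 6 macrophage markers in the files summed to 11.3 and 13.3 CPM with SPT6 siRNA and IFN-beta against 5.80 and 3.68 CPM with control siRNA and IFN-beta. Most of that sum was 1 gene, Cd68. With IFN-beta it was at 7.75 and 9.92 CPM with SPT6 siRNA against 2.71 and 2.196 CPM with control siRNA. In the same libraries Csf1r was also higher with SPT6 siRNA, at 1.84 and 3.22 against 1.73 and 1.07 CPM. Itgam had 7 and 1 counts with SPT6 siRNA against 0 and 0 with control siRNA. Lyz2 was at 1.02 and 0 CPM with SPT6 siRNA and 1.13 and 0.356 CPM with control siRNA. Emr1 had 0 counts with IFN-beta, and Ptprc had at most 3 counts in any library. The 6 lymphocyte markers summed to 1.02 and 1.48 CPM with SPT6 siRNA and IFN-beta against 0.226 and 0.534 CPM with control siRNA and IFN-beta, with Cd3e at 0 in all libraries, and the 4 epithelial markers to 0.714 and 0.957 against 0.602 and 0.475 CPM, with Epcam at 0. In the same libraries the 4 endothelial markers summed to 1.63 and 1.83 against 3.16 and 1.25 CPM. The 3 plasmacytoid dendritic markers summed to 147 and 117 against 138 and 152 CPM, nearly all of it Tcf4. None of the fibroblast and macrophage markers was called between siRNAs with IFN-beta, and the part of these sums in the results below was not tested. In bulk RNA, fewer cells of a kind and less RNA per cell cannot be told apart.

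All 8 genes are protein coding in the GENCODE annotation of GRCm38. Rsad2 (chr12:26442746-26456452, minus strand) and Cmpk2 (chr12:26469204-26479837, plus strand) are neighbours on opposite strands, 12.8 kb apart with no annotated gene between them. Ifitm2 (chr7:140954837-140955987, minus), Ifitm1 (chr7:140967221-140969825, plus) and Ifitm3 (chr7:141009586-141010770, minus) lie within 69.0 kb that also hold Ifitm5 and Ifitm6. Samhd1 lies at chr2:157097533-157135265 (minus), Bst2 at chr8:71534255-71537456 (minus) and Apobec3 at chr15:79891659-79915906 (plus).

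Promoter sequences came from RefSeq (GRCm38.p6), 250 bases before to 50 after each start, and all 8 genes matched, with 9 windows because Apobec3 has 2 starts. They were searched on both strands for the ISRE core, GAAA followed by any 2 bases and GAAA, and for the gamma-activated sequence TTCNNNGAA, which can overlap each other. The ISRE core occurred in the windows of 5 of the 8 genes, against 3.44% of all 32851 windows, and the gamma-activated sequence in 3 of 8, against 8.30%. The neighbours Rsad2 and Cmpk2 are shown first because they had the highest ratios of IFN-beta to untreated levels. Each is the 250 bases before the start, 5′ to 3′ on the gene's strand, with the ISRE core in capitals; Rsad2 has 1 on the opposite strand, which begins 120 bases before the start, and Cmpk2 has none in its window.
Rsad2 (chr12:26456453-26456702, minus): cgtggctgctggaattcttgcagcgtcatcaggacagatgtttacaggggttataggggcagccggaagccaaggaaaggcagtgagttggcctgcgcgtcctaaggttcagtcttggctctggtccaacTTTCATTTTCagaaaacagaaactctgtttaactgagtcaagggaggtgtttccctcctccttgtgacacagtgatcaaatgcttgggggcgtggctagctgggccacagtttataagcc
Cmpk2 (chr12:26468965-26469214, plus): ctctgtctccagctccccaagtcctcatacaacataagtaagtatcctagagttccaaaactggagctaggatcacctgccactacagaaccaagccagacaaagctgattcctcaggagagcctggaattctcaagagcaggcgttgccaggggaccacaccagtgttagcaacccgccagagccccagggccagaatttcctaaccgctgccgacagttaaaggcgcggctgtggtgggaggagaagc

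The other 4 genes with an ISRE core are shown as 30 bases around it, since their IFN-beta ratios, given below, ranged from that of Bst2 to that of Ifitm2. Bst2 has a pair of overlapping cores, which begin 130 and 124 bases before the start, and Ifitm3 a pair that lies just after its RefSeq start.
Bst2 (chr8:71537580-71537609, minus): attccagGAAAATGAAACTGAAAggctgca
Ifitm3 (chr7:141010714-141010743, minus): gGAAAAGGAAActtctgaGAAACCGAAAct
Ifitm2 (chr7:140955988-140956017, minus): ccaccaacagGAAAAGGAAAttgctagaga
Apobec3, first start (chr15:79892258-79892287, plus): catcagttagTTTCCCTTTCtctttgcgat
Samhd1 and Ifitm1 had no ISRE core in their windows. A match describes letters, not a bound site, and a window without one says nothing of the factor.

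**Figure D1:**
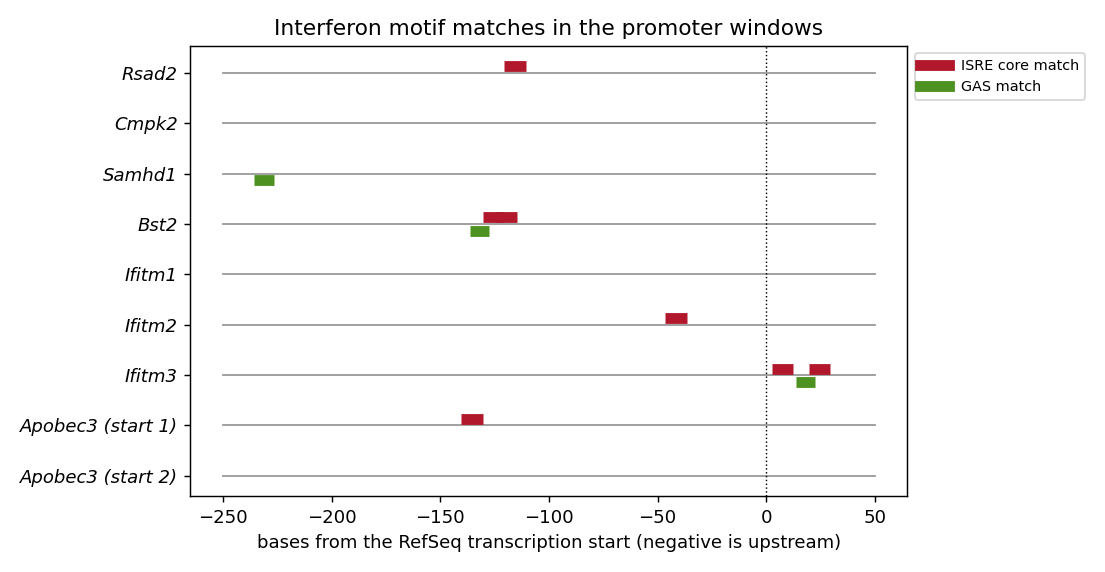
Positions of ISRE core and gamma-activated sequence (GAS) matches in the 9 promoter windows, in bases from the RefSeq start (dotted line). Cmpk2, Ifitm1 and the second Apobec3 start hold neither, and the matches of Ifitm3 lie after its start.

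The first question was how strongly each gene responded to IFN-beta with each siRNA. The 8 genes fell into a nearly silent pair with very high ratios, 1 gene with a ratio of several, 2 with higher levels at about the same ratio with each siRNA, and 3 IFITM genes without a steady response. The response with SPT6 siRNA and that with control siRNA share no library, but each gene's spread was estimated from both. Over all genes, the edgeR quasi-likelihood test called 0.0455% of genes in the response with SPT6 siRNA and 0.137% in that with control siRNA (Benjamini-Hochberg adjusted p under 0.05), and none of the 8 was called in either. All genes called in either response were higher with IFN-beta.

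Viperin and its neighbour were almost absent before treatment. Rsad2 had 181 and 87 counts with SPT6 siRNA and IFN-beta and 1 count with SPT6 siRNA untreated. With control siRNA it had 330 and 249 counts with IFN-beta and 0 untreated. With SPT6 siRNA the level was 18.5 and 7.57 CPM with IFN-beta against 0.120 CPM untreated, a ratio of 109 (95% counting interval 19.5 to 4286). With control siRNA it was 24.8 and 14.8 CPM with IFN-beta, at least 80.4-fold higher than the floor of 3 counts in the untreated library. Both IFN-beta libraries of each siRNA lay far above the untreated one, but the edgeR adjusted p was 0.299 with SPT6 siRNA and 0.123 with control siRNA.

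Cmpk2 had 179 and 95 counts with SPT6 siRNA and IFN-beta and 3 untreated, and with control siRNA 302 and 261 counts with IFN-beta and 2 untreated. The level was 18.2 and 8.26 CPM with SPT6 siRNA and IFN-beta against 0.360 CPM untreated, and 22.7 and 15.5 CPM with control siRNA and IFN-beta against 0.164 CPM untreated. The ratio was 36.9 (counting interval 12.6 to 179) with SPT6 siRNA and 116 (32.2 to 960) with control siRNA. These intervals overlap and cover counting error only. The edgeR adjusted p was 0.237 with SPT6 siRNA and 0.0989 with control siRNA.

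Tetherin was low but present in untreated cells. Bst2 had 26.8 and 11.8 CPM with SPT6 siRNA and IFN-beta against 3.72 CPM untreated, and 41.7 and 21.2 CPM with control siRNA and IFN-beta against 3.53 CPM untreated. The log2 difference was 2.37 ± 0.73 (SE) with SPT6 siRNA and 3.15 ± 0.73 with control siRNA, ratios of 5.20 with SPT6 siRNA and 8.90 with control siRNA. The IFN-beta libraries of each siRNA lay above the untreated one but far from each other (edgeR adjusted p = 0.768 with SPT6 siRNA and 0.393 with control siRNA). Without replicate 1 of the siRNA concerned the log2 difference was 1.66 with SPT6 siRNA and 2.57 with control siRNA.

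SAMHD1 stood about as much higher in both. Samhd1 had 65.2 and 60.4 CPM with SPT6 siRNA and IFN-beta against 33.2 CPM untreated, and 87.1 and 74.8 CPM with control siRNA and IFN-beta against 40.6 CPM untreated. The replicates lay close together, and the log2 difference was 0.92 ± 0.23 (SE) with SPT6 siRNA and 0.995 ± 0.23 with control siRNA (edgeR adjusted p = 0.601 with SPT6 siRNA and 0.338 with control siRNA). Apobec3 had 35.4 and 28.7 CPM with SPT6 siRNA and IFN-beta against 22.9 CPM untreated, and 47.7 and 39.0 CPM with control siRNA and IFN-beta against 31.6 CPM untreated. Its log2 difference was 0.48 ± 0.26 with SPT6 siRNA and 0.45 ± 0.26 with control siRNA (edgeR adjusted p = 0.886 and 0.682). Annotated exons of Apobec3 overlap those of D730005E14Rik by 676 bases and those of Cbx7, on the other strand, by 100 bases, and reads there are uncertain.

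None of the 3 IFITM genes was called in either response. Ifitm3 had 256 and 151 CPM with SPT6 siRNA and IFN-beta against 155 CPM untreated, and 326 and 189 CPM with control siRNA and IFN-beta against 196 CPM untreated. With each siRNA 1 IFN-beta library lay above the untreated one and the other just below it. Its log2 differences were 0.40 ± 0.44 (SE) with SPT6 siRNA and 0.39 ± 0.44 with control siRNA, and turned to -0.036 and -0.067 without replicate 1 of the siRNA concerned.

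Ifitm2 had 195 and 133 CPM with SPT6 siRNA and IFN-beta against 198 CPM untreated, and 227 and 163 CPM with control siRNA and IFN-beta against 233 CPM untreated. Every IFN-beta library lay below the untreated one. The log2 differences, -0.27 ± 0.31 with SPT6 siRNA and -0.26 ± 0.31 with control siRNA, were smaller than their errors.

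Ifitm1 was near the limit of detection, with 8 and 9 counts with SPT6 siRNA and IFN-beta, 16 and 1 with control siRNA and IFN-beta, 8 with SPT6 siRNA untreated and 13 with control siRNA untreated. The 2 control libraries with IFN-beta differed more from each other than any groups did, and a response was not detectable at this depth. The Ifitm3 to Ifitm2 count ratio was 1.31 and 1.13 with SPT6 siRNA and IFN-beta against 0.779 untreated, and 1.43 and 1.16 with control siRNA and IFN-beta against 0.842 untreated. That ratio was thus above the untreated one in all 4 IFN-beta libraries, including those where Ifitm3 itself was not.

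Of the stretches of 50 bases in annotated transcripts, 22.8% for Ifitm2, 10.0% for Ifitm3 and 5.02% for Ifitm1 also occurred in transcripts of other genes, IFITM genes or pseudogenes among them. Rsad2, Cmpk2 and Bst2 had no such stretch. Reads that align to several places were not assigned to genes, so the IFITM levels are uncertain.

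Both IFN-beta libraries were above the untreated one for 5 of 8 genes with SPT6 siRNA and for 5 of 8 with control siRNA, against 34.5% and 35.2% of all genes. The median log2 difference was 0.70 over the 8 genes with SPT6 siRNA and 0.72 with control siRNA, against 0.00 and -0.01 over all genes. At an unadjusted edgeR p under 0.05, 4 of 8 were higher with SPT6 siRNA and 4 of 8 with control siRNA, against 3.84% and 5.29% of all genes. These 4 were Rsad2, Cmpk2, Samhd1 and Bst2 each time, and none of the 8 was lower at that p, against 2.01% and 2.94% of all genes. The log2 difference was below 0 for 2 of 8 with each siRNA, against 49.3% of all genes with SPT6 siRNA and 50.6% with control siRNA. Since Rsad2 and Cmpk2 passed the count filter through the IFN-beta libraries, these counts are descriptions.

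**Figure D2:**
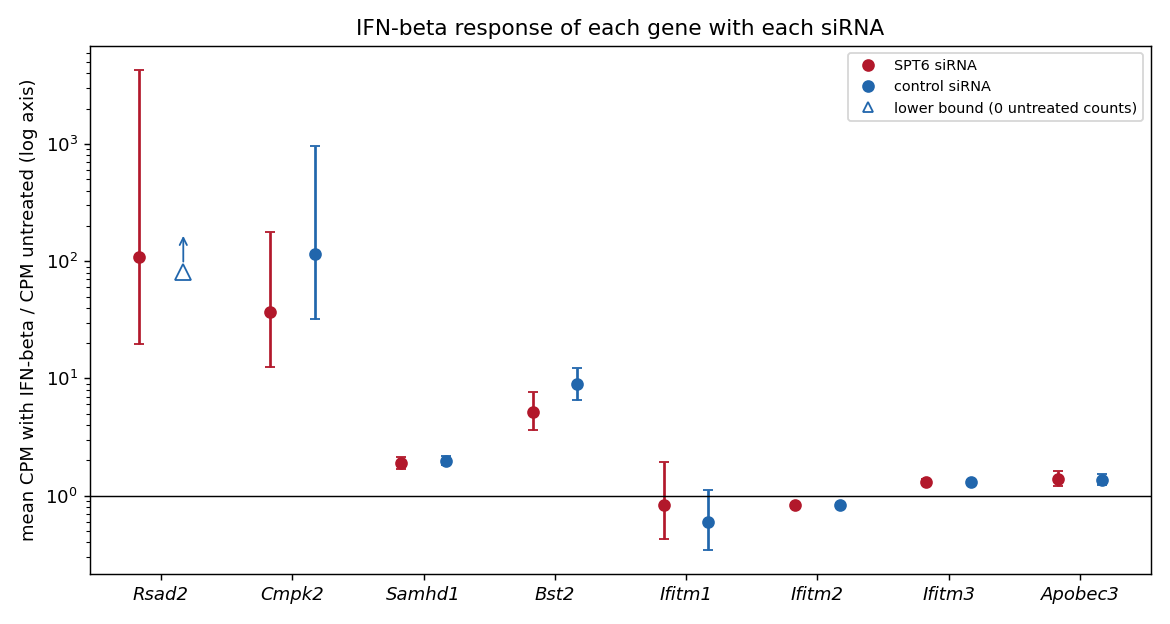
Mean CPM with IFN-beta over CPM untreated for each gene, on a log axis, with SPT6 siRNA (red) and control siRNA (blue); bars are 95% intervals of the untreated count alone and leave out the spread between replicates. Rsad2 with control siRNA is a lower bound of 80.4, and ratios range down to 0.592 for Ifitm1 with control siRNA.

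The difference of the responses was tested directly, with all 6 libraries. No gene was called in it (0% of 13185 in edgeR; 0.296% higher and 0.0834% lower at an unadjusted p under 0.05), and none of the 8 had an unadjusted p under 0.05. It was below 0 for 5 of the 8, against 51% of all genes. It was -0.78 ± 0.96 (SE, log2, SPT6 siRNA minus control siRNA) for Bst2, -0.077 ± 0.31 for Samhd1, 0.031 ± 0.36 for Apobec3, -0.011 ± 0.44 for Ifitm2 and 0.010 ± 0.61 for Ifitm3. For Rsad2, Cmpk2 and Ifitm1 the untreated counts were too low for the fitted value to be read. A p that misses the threshold does not show that responses were alike, and the error for Bst2 alone spans more than the whole estimate.

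The second question was how SPT6 siRNA bore on the level reached with IFN-beta, the comparison with 2 libraries on each side. The mean level of 7 of the 8 genes was lower with SPT6 siRNA, at 0.614 times control for Bst2, 0.657 for Rsad2, 0.694 for Cmpk2, 0.740 for Apobec3, 0.776 for Samhd1, 0.792 for Ifitm3 and 0.843 for Ifitm2. Only for Samhd1 and Apobec3 did both SPT6 siRNA libraries lie below both control libraries. None of the 8 was called by edgeR, where 0% of all genes were called (smallest adjusted p 0.122). At an unadjusted p under 0.05 it was also 0 of 8, against 7.36% of all genes higher and 4.31% lower.

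For Rsad2, Cmpk2 and Bst2 the spread between replicates was wide. Rsad2 averaged 13.01 ± 7.70 CPM with SPT6 siRNA and 19.8 ± 7.12 CPM with control siRNA (SD, n = 2 each), and SPT6 siRNA replicate 1 lay above control replicate 2. The log2 difference was -0.61 ± 0.47 (SE; edgeR adjusted p = 0.649). Cmpk2 averaged 13.3 ± 7.06 CPM with SPT6 siRNA and 19.1 ± 5.12 CPM with control siRNA, with the same overlap (-0.53 ± 0.41; edgeR adjusted p = 0.648).

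Bst2 averaged 19.3 ± 10.6 CPM with SPT6 siRNA and 31.4 ± 14.5 CPM with control siRNA (SD, n = 2 each), again with overlapping groups (-0.70 ± 0.49; edgeR adjusted p = 0.613). Within each replicate number, the SPT6 siRNA library lay below the control library for all 3 genes (for Bst2, 26.8 against 41.7 and 11.8 against 21.2 CPM). The same order held for Samhd1, Apobec3, Ifitm3 and Ifitm2, but not for Ifitm1 in replicate 2. How many of all genes had that order was not counted. The labels do not say that a number marks a shared culture. The sizes of the differences for Rsad2, Cmpk2 and Bst2 turned on single libraries. Without control replicate 1 the log2 differences were -0.18 for Rsad2, -0.22 for Cmpk2 and -0.13 for Bst2, and without SPT6 siRNA replicate 2 they were -0.11, -0.072 and -0.24 in the same order. Without SPT6 siRNA replicate 1 they were -1.40, -1.22 and -1.42, and without control replicate 2 they were -0.94, -0.78 and -1.11.

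Samhd1 and Apobec3 varied less. Samhd1 averaged 62.8 ± 3.45 CPM with SPT6 siRNA and 80.9 ± 8.71 CPM with control siRNA (SD, n = 2 each; log2 difference -0.37 ± 0.18, edgeR adjusted p = 0.477). Apobec3 averaged 32.0 ± 4.72 CPM with SPT6 siRNA and 43.3 ± 6.13 CPM with control siRNA (-0.44 ± 0.21, edgeR adjusted p = 0.465). Groups that do not overlap with SPT6 siRNA lower were seen for 2 of 8 genes and for 21.3% of all genes, and groups that do not overlap with SPT6 siRNA higher for 22.7% of all genes. The 2 genes therefore stood near the background. Without control replicate 1 the log2 differences were -0.24 for Samhd1 and -0.27 for Apobec3.

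The IFITM genes overlapped between siRNAs. Ifitm3 averaged 204 ± 74.4 CPM with SPT6 siRNA and 257 ± 96.9 CPM with control siRNA (SD, n = 2 each), and Ifitm2 164 ± 43.8 CPM with SPT6 siRNA and 195 ± 45.2 CPM with control siRNA. Their log2 differences were -0.34 ± 0.35 and -0.25 ± 0.25 (edgeR adjusted p = 0.747 and 0.740), and without control replicate 1 they turned to 0.12 for Ifitm3 and 0.022 for Ifitm2. Ifitm1 averaged 0.799 CPM with SPT6 siRNA and 0.632 CPM with control siRNA, and its sign rested on the control library with 1 count (0.41 ± 1.07; -0.59 without it).

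Over the 8 genes the median log2 difference was -0.40, against -0.02 over all genes, and 7 of 8 were below 0, against 52% of all genes. With 1 library left out the median ran from -0.69 to -0.09. In both IFN-beta groups replicate 2 lay below replicate 1 for 8 of 8 genes, against 33.1% of all genes, so the libraries of a group stood apart in these genes.

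**Figure D3:**
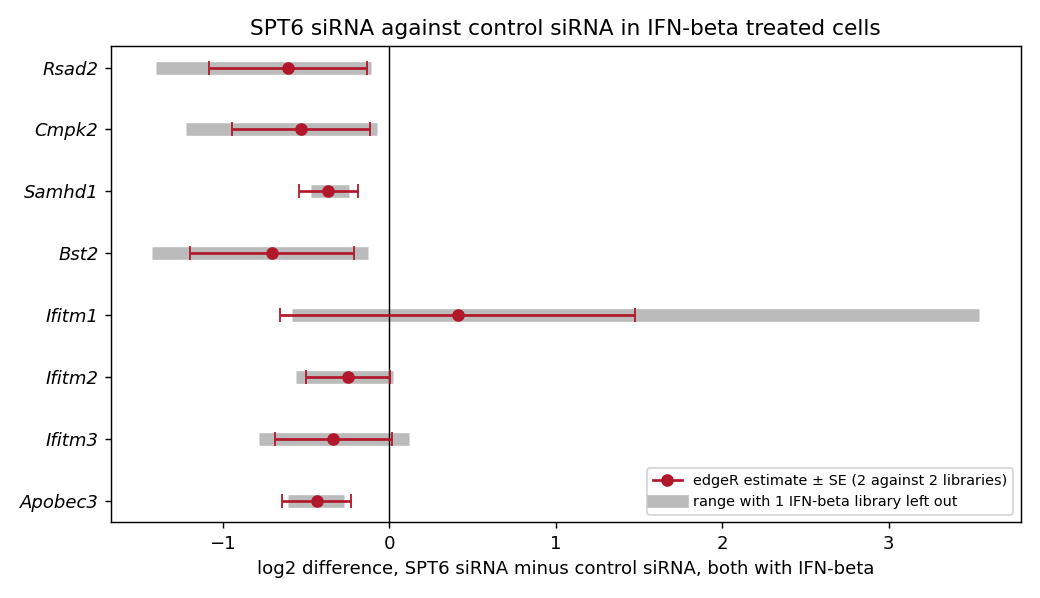
Log2 difference of SPT6 siRNA minus control siRNA, both with IFN-beta, as the edgeR estimate ± SE from 2 against 2 libraries (red) and its range with 1 IFN-beta library left out (grey). Estimates run from -0.70 for Bst2 to 0.41 for Ifitm1, and the grey ranges of Rsad2, Cmpk2 and Bst2 nearly reach 0.

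**Figure D4:**
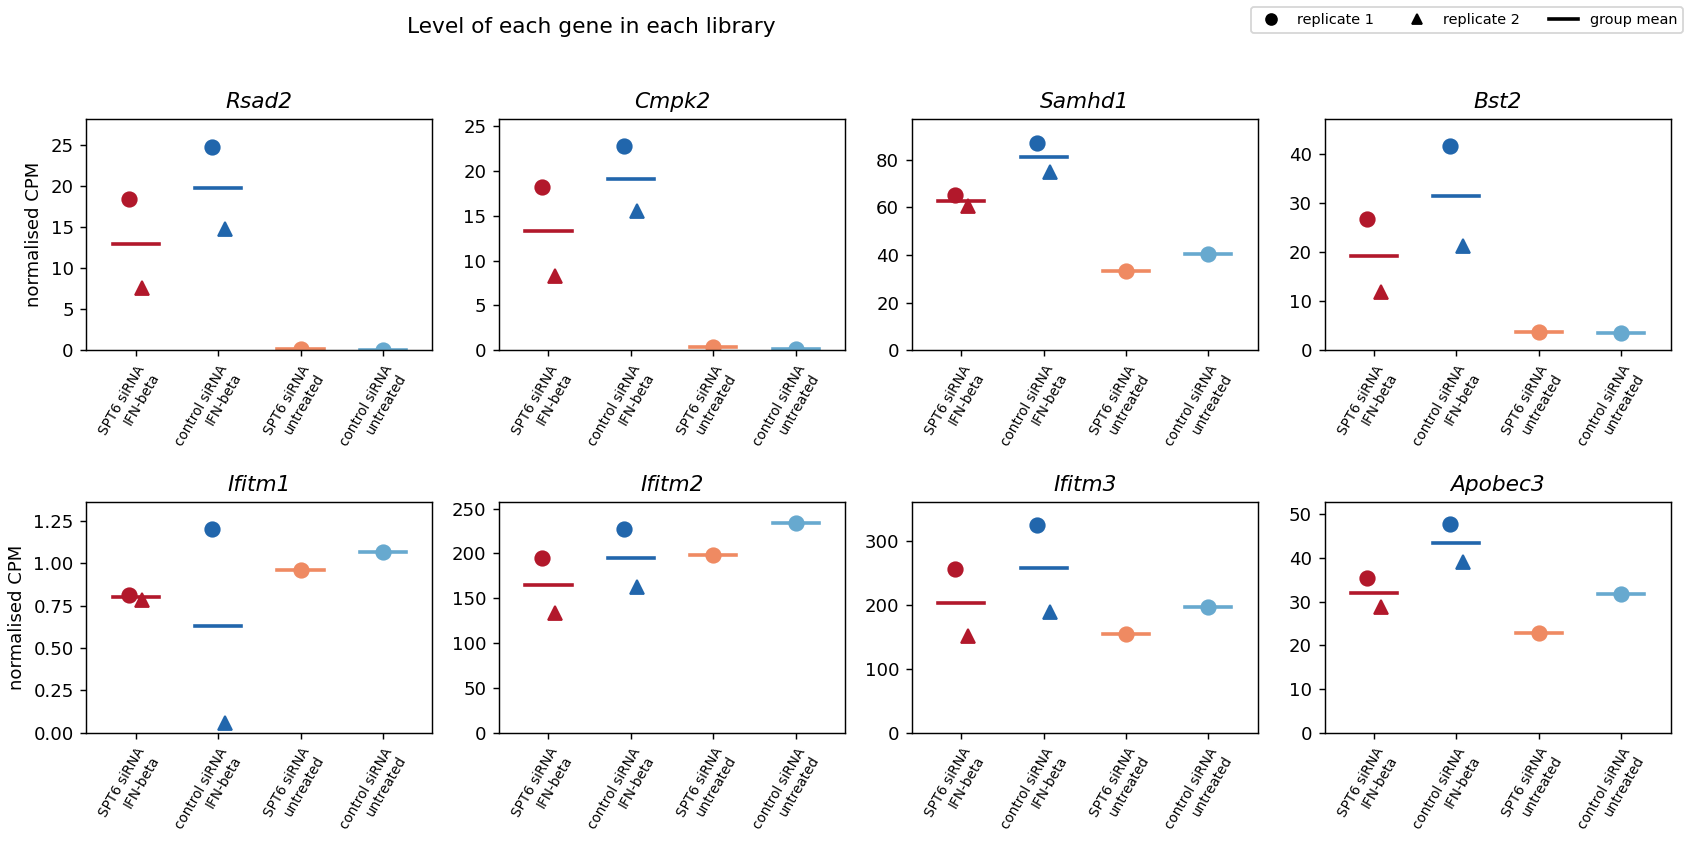
Normalised CPM of each gene in each of the 6 libraries, on linear axes that start at 0; circles are replicate 1, triangles replicate 2 and lines group means. Rsad2, Cmpk2 and Bst2 are near 0 untreated, whereas Ifitm2 lies at 133 CPM or above in every library.

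In untreated cells the comparison rested on 1 library against 1, with no replicate check, and the intervals given cover counting error only. Bst2 had 3.72 CPM with SPT6 siRNA and 3.53 CPM with control siRNA, a ratio of 1.05 (95% counting interval 0.641 to 1.71). Apobec3 had 22.9 CPM with SPT6 siRNA and 31.6 CPM with control siRNA, a ratio of 0.724 (0.605 to 0.863). The ratio was 0.818 (0.704 to 0.950) for Samhd1, 0.787 (0.735 to 0.842) for Ifitm3 and 0.850 (0.799 to 0.903) for Ifitm2. Apobec3, Samhd1, Ifitm3 and Ifitm2 thus stood at 0.724 to 0.850 times control untreated and, as given above, at 0.740 to 0.843 times control with IFN-beta. Bst2, which had 31 and 43 counts before treatment, stood at 1.05 times control untreated and 0.614 times control with IFN-beta. The test of that difference is the difference of the responses above, which was not called. Cmpk2 had 3 counts with SPT6 siRNA and 2 with control siRNA, a ratio of 2.19 (0.251 to 26.2), and Ifitm1 a ratio of 0.898 (0.323 to 2.34). Rsad2 had 1 count against 0, which gives no ratio. None of the 8 genes differed more than 2-fold on the log2 CPM scale with a prior count of 2, against 1.41% of all genes lower and 3.13% higher. For Rsad2 and Cmpk2 this says little, because the prior count is about as large as their counts.

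Levels of different genes can be set side by side only per length of annotated exon, here the union of all isoforms. That union, 9150 bases for Samhd1 and 9454 for Apobec3 against 903 for Bst2, can exceed the length of the transcripts present. The annotation used in counting is not given, so the order below is approximate. With SPT6 siRNA and IFN-beta, Ifitm3 had 378 and 223 CPM per kb and Ifitm2 298 and 204, followed by Bst2 with 29.7 and 13.1, Samhd1 with 7.13 and 6.597, Apobec3 with 3.74 and 3.04, Cmpk2 with 4.38 and 1.98, Rsad2 with 4.26 and 1.75 and Ifitm1 with 0.746 and 0.716 CPM per kb. With control siRNA and IFN-beta the order was the same from Ifitm3 to Samhd1, at 480 and 278 CPM per kb for Ifitm3 and 9.52 and 8.17 for Samhd1. Apobec3, Cmpk2 and Rsad2 overlapped one another, and their order changed between libraries. The ranges of Ifitm3 and Ifitm2 also overlapped with each siRNA, but within each IFN-beta library Ifitm3 was above Ifitm2. With control siRNA and IFN-beta, Ifitm2 had 347 and 249 CPM per kb. Untreated, Ifitm2 was the higher of the pair, with 303 CPM per kb with SPT6 siRNA and 356 with control siRNA, whereas Ifitm3 had 228 with SPT6 siRNA and 290 with control siRNA. Ifitm2 and Ifitm3 held 73.3% and 70.8% of the reads of the 8 genes with SPT6 siRNA and IFN-beta, 71.0% and 68.0% with control siRNA and IFN-beta, 85.2% with SPT6 siRNA untreated and 84.8% with control siRNA untreated.

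**Figure D5:**
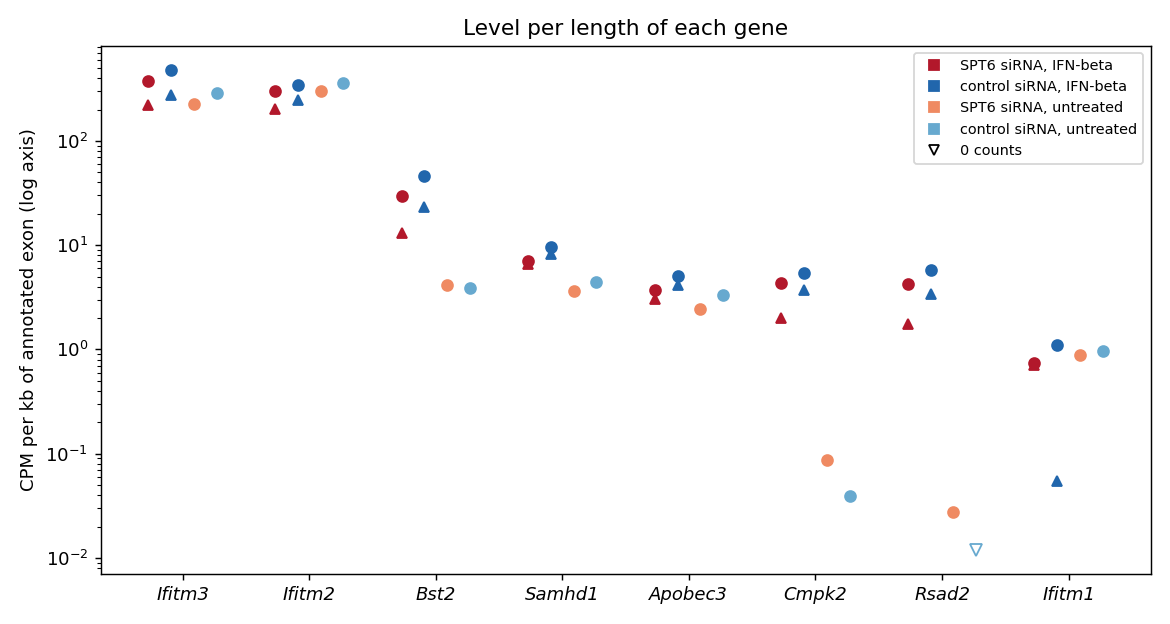
CPM per kb of annotated exon for each gene in each library, on a log axis, by group; circles are replicate 1 and triangles replicate 2. Ifitm2 and Ifitm3 lie above 200 CPM per kb in every library, and the open triangle marks the 0 counts of Rsad2 with control siRNA untreated.

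The genes whose pattern over the 6 libraries lay nearest were found by the root mean square (RMS) difference of centred log2 CPM among 9727 or 9726 genes. Nearest to Rsad2 were Gbp7 (RMS 0.12), Gbp3 (0.18) and Irgm2 (0.27), and to Cmpk2 Irgm1 (0.19), Gm12185 (0.30) and Ifi47 (0.31). Nearest to Bst2 were Tor3a (0.14), H2-T24 (0.16) and Tap1 (0.17), to Samhd1 Gpr176 (0.074), Thbs1 (0.085) and N4bp1 (0.098), and to Apobec3 Cachd1 (0.061), Tnik (0.078) and Jak2 (0.086). Nearest to Ifitm3 were Psme1 (0.099), Trafd1 (0.11) and Tnc (0.13), to Ifitm2 Gstm2 (0.040), Nedd4 (0.045) and Ufl1 (0.047), and to Ifitm1, at low counts, Mturn (0.39), Deptor (0.40) and Snora3 (0.42). No member was among the 3 nearest to another member. Only genes with average log2 CPM of at least 3 could be listed, which left out Rsad2, Cmpk2 and Ifitm1 as neighbours in advance. Rsad2 and Cmpk2 differed by an RMS of 0.44, with 0 to 3 untreated counts each.

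The enzymes around these genes in nucleotide metabolism were followed as a list of 25. None was called in any comparison. With IFN-beta, 17 of 25 lay lower with SPT6 siRNA, against 52% of all genes (median log2 difference -0.13, against -0.02 over all genes). Rrm2b, the p53-inducible subunit of ribonucleotide reductase, was at 32.9 and 38.5 CPM with SPT6 siRNA and 20.7 and 19.9 CPM with control siRNA (log2 difference 0.81 ± 0.19, edgeR adjusted p = 0.309). The groups did not overlap, and 22.7% of all genes had both SPT6 siRNA libraries above both control libraries. Rrm1, the large subunit of the reductase, was at 171 and 176 CPM with SPT6 siRNA and 200 and 297 CPM with control siRNA (-0.52 ± 0.22), and Rrm2, the S-phase subunit, at 55.1 and 98.9 CPM with SPT6 siRNA and 68.1 and 157 CPM with control siRNA (-0.55 ± 0.48). The thymidine kinase gene Tk1 (-0.61 ± 0.27) and the deoxycytidine kinase gene Dck (-0.37 ± 0.27) were also below 0. Cmpk1, the cytosolic relative of Cmpk2, was at 172 and 144 CPM with SPT6 siRNA and IFN-beta and 159 and 169 CPM with control siRNA and IFN-beta, against 139 CPM with SPT6 siRNA untreated and 140 CPM with control siRNA untreated.

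Of 11 genes for proteins that work with viperin or IFITM3, none was called in any comparison. Ciao1, of the cytosolic iron-sulfur cluster assembly that matures viperin, was at 41.3 and 38.1 CPM with SPT6 siRNA and IFN-beta against 27.6 and 31.2 CPM with control siRNA and IFN-beta (0.43 ± 0.18). Zmpste24, a membrane protease that acts with IFITM proteins, was at 168 and 161 CPM with SPT6 siRNA and 126 and 135 CPM with control siRNA (0.33 ± 0.16). Vapa, whose protein binds viperin, was at 170 and 178 CPM with SPT6 siRNA and 161 and 171 CPM with control siRNA (0.072 ± 0.16). Fdps, which encodes farnesyl diphosphate synthase, an enzyme that viperin binds, had the largest difference in this list and is named after its values were seen. It was at 369 and 246 CPM with SPT6 siRNA and IFN-beta and 603 and 505 CPM with control siRNA and IFN-beta, without overlap (-0.85 ± 0.25, edgeR adjusted p = 0.349). With IFN-beta 3 of the 11 lay lower with SPT6 siRNA, against 52% of all genes, with a median log2 difference of 0.10, against -0.02 over all genes. Of the other IFITM genes, 1 of 4 could be tested, Ifitm5, at 1.22 and 1.39 CPM with SPT6 siRNA and IFN-beta and 0.979 and 1.13 CPM with control siRNA and IFN-beta. Ifitm10 had 2 and 4 counts with SPT6 siRNA and IFN-beta, 0 in both libraries with control siRNA and IFN-beta, 1 with SPT6 siRNA untreated and 0 with control siRNA untreated.

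Among 20 other restriction factor genes, 18 were tested. In the response with SPT6 siRNA 1 was called higher and none lower, against 0.0455% of all genes called. In the response with control siRNA 3 were called higher and none lower, against 0.137% of all genes. The log2 difference was below 0 for 1 of 18 with SPT6 siRNA and 2 of 18 with control siRNA, against 49.3% and 50.6% of all genes. Trim25, a ubiquitin ligase of antiviral signalling, rose with each siRNA, at 312 and 289 CPM with SPT6 siRNA and IFN-beta against 53.7 CPM untreated (log2 difference 2.48 ± 0.24, edgeR adjusted p = 0.0492), and at 382 and 338 CPM with control siRNA and IFN-beta against 55.2 CPM untreated (2.70 ± 0.24, edgeR adjusted p = 0.0226). The other 2 called with control siRNA were Mx2, a dynamin-like GTPase, and Trim21, a cytosolic antibody receptor, and both were also above untreated with SPT6 siRNA, without a call. Mx2 had 890 and 589 counts with SPT6 siRNA and IFN-beta and 0 untreated (edgeR adjusted p = 0.0510), and 1932 and 1548 counts with control siRNA and IFN-beta and 1 untreated (0.0360). Like Rsad2 and Cmpk2, it entered the test through the IFN-beta libraries alone and had to stand higher there. The same holds for Mx1, which had 1 untreated count with SPT6 siRNA and 3 with control siRNA. Trim21 was at 88.0 and 58.9 CPM with SPT6 siRNA and IFN-beta against 6.47 CPM untreated (3.50 ± 0.42, edgeR adjusted p = 0.0769), and at 126 and 87.4 CPM with control siRNA and IFN-beta against 7.97 CPM untreated (3.74 ± 0.42, edgeR adjusted p = 0.0436). The difference of responses was called for neither. Trim25 lost its call with SPT6 siRNA without SPT6 siRNA replicate 1 (edgeR adjusted p = 0.0712), and Trim21 without control replicate 1 (0.0639). The medians were 1.65 with SPT6 siRNA and 1.83 with control siRNA, above those of the 8 genes. Since Mx1 and Mx2 passed the count filter through the IFN-beta libraries, the counts and medians of these responses are descriptions. Trim30a was at 291 and 136 CPM with SPT6 siRNA and IFN-beta against 56.4 CPM untreated, Ly6e at 122 and 94.3 against 67.9 CPM, and Isg20 at 15.4 and 9.13 against 7.43 CPM. With control siRNA these were 357 and 236 CPM with IFN-beta against 71.5 CPM untreated, 170 and 123 against 91.0 CPM, and 19.3 and 9.73 against 8.87 CPM. Ch25h had 0 counts in all 6 libraries. Between siRNAs with IFN-beta, 16 of 18 lay lower with SPT6 siRNA (median -0.31), against 52% of all genes (median -0.02), and none was called.

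Of 12 tested genes that carry the interferon signal, none was called in the response with SPT6 siRNA, against 0.0455% of all genes. In the response with control siRNA 2 were called, Irf9 and Irf7, against 0.137% of all genes. Both were also above untreated with SPT6 siRNA, and neither was called in the difference of responses. Irf9 was at 49.96 and 38.5 CPM with SPT6 siRNA and IFN-beta against 5.04 CPM untreated, and at 67.5 and 47.9 CPM with control siRNA and IFN-beta against 6.16 CPM untreated (log2 difference 3.13 ± 0.37 with SPT6 siRNA and 3.22 ± 0.36 with control siRNA, edgeR adjusted p = 0.0710 and 0.0436). Irf7 was at 36.5 and 22.9 CPM with SPT6 siRNA and IFN-beta against 0.360 CPM, or 3 counts, untreated (edgeR adjusted p = 0.0503), and at 47.1 and 31.5 CPM with control siRNA and IFN-beta against 1.07 CPM untreated (5.19 ± 0.55, edgeR adjusted p = 0.0432). Without control replicate 1 neither was called with control siRNA (edgeR adjusted p = 0.0698 for Irf9 and 0.0612 for Irf7). Stat2 was at 205 and 138 CPM with SPT6 siRNA and IFN-beta and at 273 and 193 CPM with control siRNA and IFN-beta (-0.44 ± 0.26). Between siRNAs with IFN-beta, 9 of 12 lay lower with SPT6 siRNA (median -0.056), against 52% of all genes (median -0.02), and none was called.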

How the data were processed

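The authors deposited whole-number counts of reads per gene symbol, 1 library a file, not normalised. TopHat2 2.1.0, HTSeq 0.6.1p1 and DESeq2 are listed in the submitters' processing notes, as are mm10 and GRCm38, with no roles. Strand setting and annotation: not given in the sources used here. Overlapping genes therefore cannot be told apart. Of all deposited counts, 32.9% to 38.0% were in genes, 33.8% to 37.5% in no feature and 27.9% to 31.3% not uniquely aligned. Lines naming no gene were left out.

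In R 4.3.3, genes were kept by filterByExpr (count minimum 10), scaled by TMM and tested with edgeR 4.0.16 (glmQLFit, robust; glmQLFTest) on 4 group means over 6 libraries, without a replicate block. Only the IFN-beta groups give residual degrees of freedom (2), and single libraries are assumed to vary like them. Each SE was obtained by dividing the absolute log2 difference by √F. Genes at 0 counts have a floor of 3 counts per library; counting intervals are exact 95% Poisson or binomial ones. The script was tested on simulated data. Alternatives used DESeq2 1.42.0 and limma 3.58.1 among others.

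The members, lists and tests were chosen with earlier results of these data known. Named genes were the 8 members, Supt6, a fixed set from each list, any list gene called, and each member's 3 nearest genes (average log2 CPM at least 3).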

Additional observations from a re-analysis of the deposited data

How the results depend on the processing

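No member was called between siRNAs with IFN-beta under 11 of 13 alternatives. The same-numbered IFN-beta libraries deviated together from their group means (r = 0.56 across 13185 genes, with 2 numbers), but the labels do not say that a number marks a shared culture, so the replicate block stayed an alternative. With the replicate block edgeR called 2638 genes in place of 0, with 4 members lower (Rsad2, Cmpk2, Bst2 and Apobec3), and with 3 matched pairs, the untreated one included, 3245 genes and 6 members lower (Samhd1 and Ifitm3 too). The block gave 545 genes in place of 6 and 5 members in the response with SPT6 siRNA, 957 in place of 18 and 6 members in that with control siRNA, and 4 in place of 0 with no member in the difference of responses; Ifitm1 turned to 0.44 in the response with SPT6 siRNA. DESeq2 called 58 genes between siRNAs, 129 genes and 3 members (Rsad2, Cmpk2 and Bst2) in the response with SPT6 siRNA, and 206 genes and 3 members (the same ones) in that with control siRNA. Without a filter on low counts edgeR called 66 genes between siRNAs, 46 genes and 1 member (Cmpk2) with SPT6 siRNA, and 77 genes and 1 member (Cmpk2) with control siRNA, and 1146 genes in place of 599 passed 2-fold untreated. limma-voom called 0 and 5 genes in the responses with SPT6 siRNA and control siRNA, and library size alone gave 12 with SPT6 siRNA. The cause of these changes was not tested.

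With 1 IFN-beta library left out, the response with SPT6 siRNA had 9 to 25 genes and 0 to 2 members called, and that with control siRNA 16 to 52 genes and 0 to 2 members; the members were Rsad2 and Cmpk2. Among the other called genes, Trim21, Irf9 and Irf7 lost their call in the response with control siRNA without control replicate 1, and Trim25 in that with SPT6 siRNA without SPT6 siRNA replicate 1; limma-voom kept Trim25 with control siRNA alone. With 1 library left out, signs turned within these ranges. Between siRNAs the log2 difference ran from -0.59 to 3.54 for Ifitm1, -0.56 to 0.022 for Ifitm2 and -0.78 to 0.12 for Ifitm3. In the response with SPT6 siRNA Ifitm3 ran from -0.036 to 0.71, and in that with control siRNA Ifitm3 ran from -0.067 to 0.73 and Ifitm1 from -3.95 to 0.17. In the difference of responses, values ran from -0.18 to 0.059 for Samhd1, -0.43 to 3.71 for Ifitm1, -0.35 to 0.27 for Ifitm2, -0.45 to 0.48 for Ifitm3 and -0.16 to 0.20 for Apobec3, and Ifitm2 was 0.021 with library size alone. Depth limits Ifitm1 and the untreated levels of Rsad2 and Cmpk2.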
